A study of Mus musculus with 10 samples.

Results

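Imprinted genes are genes of which mainly the copy inherited from a given parent is read, and 35 of them were followed through a map of N6-methyladenosine (m6A) in mouse hypothalamic neural progenitor cells. A peak, an interval of RNA enriched by an antibody against m6A, was counted for a gene where it overlapped the gene's RefSeq span on the mouse build GRCm38.p6 by at least 50% of the shorter of both. By this rule 24 of the 35 genes held a peak, and 65 of the 21195 peaks of the map belonged to them. The 65 peaks made 68 gene and peak pairs, because 3 of them lay in the spans of 2 listed genes that overlap each other. A single peak missed the rule, on the minus strand across the 3' end of Usp29, with 40.7% of its length inside the span, 8 input reads and 78 IP reads. The member peak with the smallest overlap, on the minus strand at the 3' end of Airn, had 62.3% of its length inside.

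The cells came from the hypothalamus of E14.5 embryos of the Mettl14f/f genotype, so control and knockout cells alike carried the floxed gene for Mettl14, a subunit of the enzyme that writes m6A. They were grown on Matrigel with FGF2 and EGF at 20 ng/ml each. Control cells received lenti-EGFP and knockout cells lenti-EGFP-Cre for 24 hours, and EGFP-positive cells of both were sorted 72 hours later, so the deletion reached only cells that the virus had entered. How many embryos or cultures stood behind a library is not stated in the labels. The series lists 4 control and 4 knockout m6A immunoprecipitation (IP) libraries and 1 input library of each genotype, all from polyadenylated RNA broken into short fragments. The peak table has 1 input and 1 IP read count per peak and names no library, so control and knockout could not be compared for these genes, and no value below has a replicate or an SD. Peaks of 7 of 8 progenitor markers were present (Vim had none), with 3 of 5 hypothalamic, 3 of 4 neuronal, 2 of 4 astrocyte, 3 of 4 oligodendrocyte-lineage, 0 of 4 blood and microglial and 0 of 4 vascular and mesenchymal markers. Beside these counts, 44.2% of all RefSeq protein-coding genes held a peak, and lists of 4 to 8 genes are too short to set against it. A peak is no measure of expression, so these counts describe the map and not the purity of the culture.

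At an imprinted locus a control region carries DNA methylation on 1 parental copy, and neighbouring genes follow that mark in a cluster of genes. Many clusters hold a long noncoding RNA that runs antisense to a coding gene, such as Airn across Igf2r and Kcnq1ot1 within Kcnq1. Many imprinted genes act in growth, and several, such as Ndn, Magel2 and Peg3, are known for roles in the hypothalamus. The mark m6A is placed on RNA after transcription, often near stop codons and in long exons, and it is known to speed the decay of many transcripts. Which parental copy gave the RNA was not measured here, so the parental origin named below is textbook background.

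Peaks reached into the promoter window, 250 bases before to 50 after a transcription start, in 11 of the 46 RefSeq windows of these genes. The 29 genes with a window were matched by symbol, and the sequences below are from RefSeq for GRCm38.p6, each on the strand of its gene. They are shown because they hold the part of a peak that lies at a gene's start, which is in capitals in the first 3. Of those 11 windows, 8 were reached on the strand of the gene. In Ppp1r9a (chr6:4902725-4903024, plus strand) the capitals are a whole peak of 75 bases. In Usp29 (chr7:6730333-6730632, plus strand) they are the first 55 bases of a peak of 700 bases, and in Asb4 (chr6:5383136-5383435, plus strand) the first 50 of a peak of 14849 bases that begins exactly at the RefSeq start. The window of Nap1l5 (chr6:58907077-58907376, minus strand) ends on the base before its own strong peak and lies wholly in a peak of the plus strand, and its capitals mark the 2 copies of TGCCGC, the core sequence bound by the imprint-keeping factor Zfp57.
Ppp1r9a: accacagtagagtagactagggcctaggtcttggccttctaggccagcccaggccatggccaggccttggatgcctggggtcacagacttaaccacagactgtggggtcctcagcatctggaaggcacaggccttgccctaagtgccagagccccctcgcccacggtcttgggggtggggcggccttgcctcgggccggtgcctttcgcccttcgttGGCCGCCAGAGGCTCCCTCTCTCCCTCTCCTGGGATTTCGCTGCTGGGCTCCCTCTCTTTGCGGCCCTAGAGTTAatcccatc
Usp29: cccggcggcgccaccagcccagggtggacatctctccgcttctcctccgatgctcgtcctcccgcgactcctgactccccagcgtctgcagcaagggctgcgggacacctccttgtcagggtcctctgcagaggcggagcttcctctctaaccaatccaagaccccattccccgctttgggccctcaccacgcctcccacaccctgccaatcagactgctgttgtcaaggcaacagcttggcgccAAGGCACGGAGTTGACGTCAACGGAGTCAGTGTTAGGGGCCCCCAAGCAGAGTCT
Asb4: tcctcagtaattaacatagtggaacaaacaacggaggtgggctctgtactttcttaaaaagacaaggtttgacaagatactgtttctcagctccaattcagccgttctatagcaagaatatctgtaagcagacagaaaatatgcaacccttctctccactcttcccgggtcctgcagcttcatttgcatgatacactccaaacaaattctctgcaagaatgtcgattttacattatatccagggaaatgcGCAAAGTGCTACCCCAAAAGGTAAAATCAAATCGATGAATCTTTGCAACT
Nap1l5: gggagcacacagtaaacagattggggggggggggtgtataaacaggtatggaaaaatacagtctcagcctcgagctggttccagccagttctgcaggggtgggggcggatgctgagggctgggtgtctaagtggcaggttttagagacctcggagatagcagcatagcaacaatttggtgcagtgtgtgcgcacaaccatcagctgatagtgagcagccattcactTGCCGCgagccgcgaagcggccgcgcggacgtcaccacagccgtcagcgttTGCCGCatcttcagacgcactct

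None of the capital stretches of Ppp1r9a, Usp29 and Asb4 held GGAC, the core of the usual m6A consensus, on the strand of the peak (0 matches each). Over the 11 windows, the part inside the interval of the peak held GGAC on the strand of the peak in 5. These were both windows of Gnas that a peak reached, another of Asb4 in the same long peak, 1 of Snrpn and that of Kcnq1ot1. The peaks over these 5 were 14849 to 163459 bases long. Whether such intervals skip introns is not stated, so these windows may lie outside the enriched RNA. GGAC or its complement GTCC was common in promoter windows, in 87.7% of all 32851 windows and 89.1% of the 46 windows of imprinted genes. The letters TGCCGC or, on the other strand, GCGGCA stood in a window of 10 of the 29 genes (34.5%), beside 13.1% of 27025 genes with a window. These 10 were Grb10, Igf2, Meg3, Mest, Nap1l5, Nnat, Plagl1, Snrpn, Zdbf2 and Zim1. The windows of imprinted genes had a median GC content of 56.5%, beside 52.7% over all windows, and several windows of a gene overlap each other. The part of GC content in the count was not tested, and a match describes letters and not a bound site.

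Of the 29 protein-coding imprinted genes 20 held a peak on either strand (69.0%), beside 44.2% of all RefSeq protein-coding genes, and Rtl1 is among them only through a peak it shares with Meg3. Counting only peaks on the strand of the gene, for the 24 coding genes whose strand the RefSeq windows give, 15 held one (62.5%), beside 43.5%. Of the 6 long noncoding RNA genes 4 held a peak, Meg3, Rian, Airn and Kcnq1ot1, beside 10.9% of RefSeq long noncoding RNA genes. Coding imprinted genes spanned a median of 38.3 kb, beside 17.1 kb over all coding genes, and those with a peak spanned 45.2 kb against 15 kb for those without. The part of span and of expression in these shares was not tested. The median number of peaks was 2 per imprinted gene with a peak and 2 per coding gene with a peak. Ppp1r9a had 9, Airn 7 and Peg3, Usp29 and Plagl1 5 each, while 9 genes had 1.

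The peaks of imprinted genes were spread over most of the range seen in the map. In the authors' deposited table their log2 fold change of IP over input ran from 1.08 to 5.29 with a median of 3.24, beside a median of 3.06 over all peaks. In the authors' deposited table the log2 fold change was above that median for 37 of the 65 (56.9%), beside 50% of all peaks by construction, and at least 4 for 13 (20.0%), beside 19.8%. Values quoted from that table below are log2 fold changes unless another quantity is named. All 65 had an adjusted p under 0.05 in the authors' deposited table, as did 21187 of the 21195 peaks (100% to 3 digits), so this call does not tell imprinted genes from others. The reads themselves were higher in IP than in input for 53 of 65 peaks (81.5%), beside 88.6% of all peaks. A plain read ratio is not corrected for the depth of the IP and input libraries, so a ratio under 1 by itself shows no depletion. The table's fold change exceeded the log2 read ratio by a median of 1.97 here and 1.88 over all peaks. In total the 65 peaks held 74983 input and 210666 IP reads, which is 0.291% of all IP reads in peaks. Read ratios below carry exact Clopper-Pearson 95% intervals. PCR reads are not independent molecules, so these take the values as counts and cover counting error only.

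**Figure D1:**
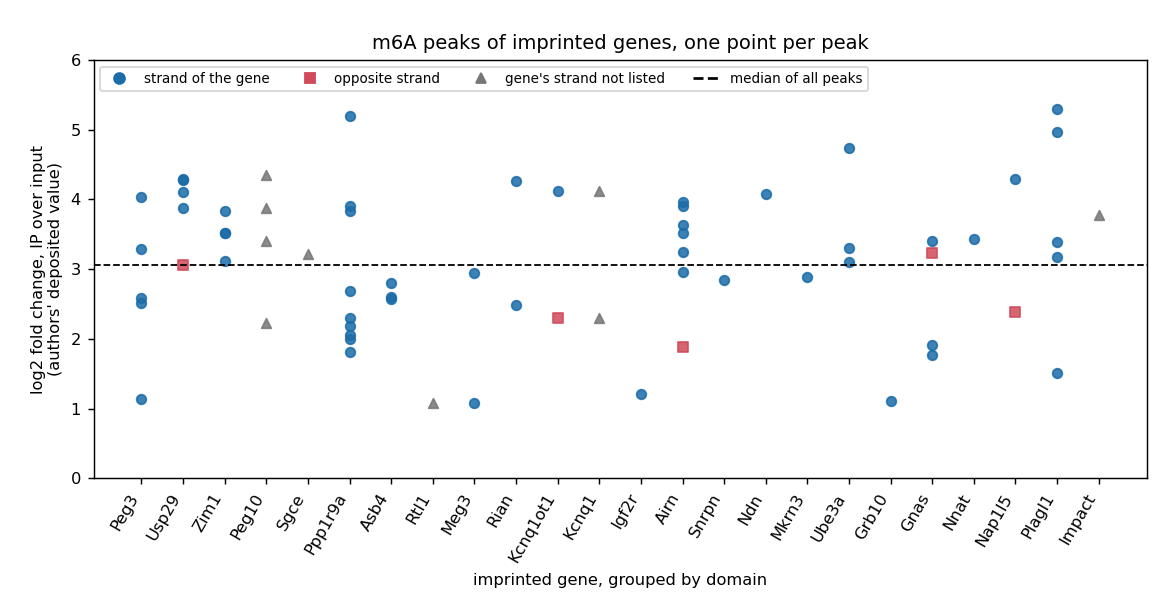
Log2 fold change of IP over input in the authors' deposited table (vertical axis) for every peak of the 24 imprinted genes with a peak (horizontal axis, grouped by domain), with marker and colour for the strand of the peak relative to the gene. The dashed line is the median of all 21195 peaks (3.06), and 37 of the 65 different peaks lie above it, with Plagl1 and Ppp1r9a the highest.

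All 3 listed genes of the Peg3 domain on proximal chromosome 7 held peaks, 14 in all. Peg3 encodes a paternally expressed zinc finger protein, and its 5 minus-strand peaks all lay between 70.2% and 87.1% of the way along the gene. The strongest (6709817 to 6710416) held 1265 IP reads over 262 input reads, a ratio of 4.83 (4.22 to 5.54), and 4.03 on the log2 scale in the authors' deposited table. The peak next to it (6708642 to 6709666) had 137 input and 106 IP reads, with 1.13 in the authors' deposited table. These neighbours on the same strand stood at the percentiles 81.1 and 1.33 of all peaks by that table, and their ratio intervals did not overlap.

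Usp29, a gene for a ubiquitin-specific protease, starts 96 bases from the start of Peg3 and runs the other way. Its first plus-strand peak (6730578 to 6731277) began 19 bases after the start and held 193 IP reads over 39 input reads, a ratio of 4.95 (3.49 to 7.17). The other 3 plus-strand peaks had ratios of 4.27, 5.21 and 3.81, with intervals that overlap that of the first. In the authors' deposited table the 4 lay between 3.88 and 4.29 on the log2 scale. Each of the 4 carried 2 gene identifiers. The peaks that begin at 6961617 and 6963092 also lie in Zim3, a long noncoding RNA gene whose strand is not listed. Their reads cannot be given to Usp29 alone. Zim1, a maternally expressed zinc finger gene of the same cluster, had 4 minus-strand peaks between 3.12 and 3.84 in the authors' deposited table. Zim1 peaks held 29289 IP reads, of which 28346 (96.8%) lay in 125 bases (6677869 to 6677993), with 6272 input reads and a ratio of 4.52 (4.40 to 4.65). All 3 genes of this domain had at least 1 peak above the median of the map.

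**Figure D2:**
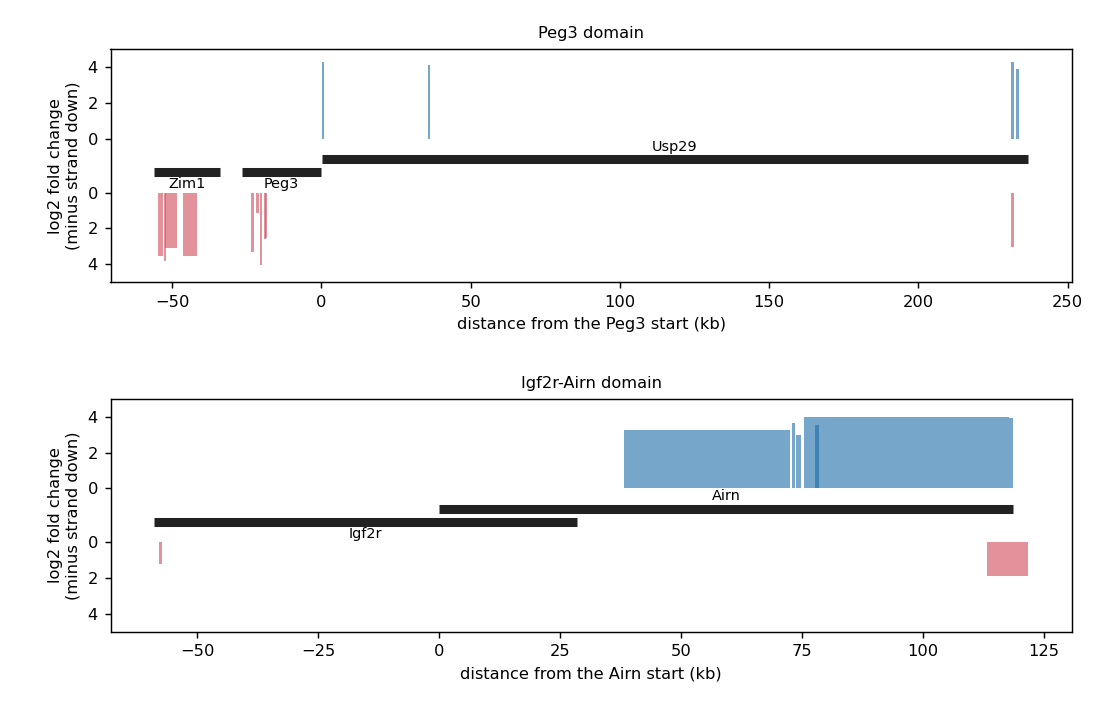
Peaks in the Peg3 domain (upper panel) and the Igf2r and Airn domain (lower panel), by distance in kb from the start of Peg3 or Airn, with gene spans in black and bars for the log2 fold change in the authors' deposited table, plus strand up in blue and minus strand down in red. Bars are as wide as the peak and at least 0.7 kb; Igf2r has a single low bar near its 3' end, while the plus-strand bars of Airn begin 38140 bases after its start.

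In the Peg10 and Sgce domain on proximal chromosome 6, all 4 listed genes held peaks. Peg10 is a paternally expressed gene derived from a retrotransposon, and its strongest peak (4754151 to 4754750) held 14943 IP reads over 3234 input reads, a ratio of 4.62 (4.45 to 4.80), and its log2 fold change in the authors' deposited table was 4.35. That peak held 87.8% of the IP reads in the 4 Peg10 peaks. The peak that follows (4755376 to 4755975) held 1531 IP reads over 981 input reads, a ratio of 1.56 (1.44 to 1.69). Sgce encodes epsilon-sarcoglycan of the muscle and brain membrane complex, and its span ends 101 bases from that of Peg10. Its single minus-strand peak (4740174 to 4747120) had 1534 input and 2950 IP reads, and its log2 fold change in the authors' deposited table was 3.22. The 4 Peg10 peaks were all on the plus strand, so the neighbours were marked on opposite strands.

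Ppp1r9a encodes neurabin, an actin-binding protein of nerve cells, and its 9 plus-strand peaks spread from 0.0407% to 98.7% of the span. The strongest (4946618 to 4946967) held 674 IP reads over 99 input reads, a ratio of 6.81 (5.51 to 8.49), and its log2 fold change in the authors' deposited table was 5.19, the percentile 98.5 of all peaks. It carried another gene identifier than the other 8 in the table. Of those 8, the peaks at 4903869 to 5007837 and 5157015 to 5160480 had 8129 and 11307 IP reads and 3.83 and 3.91 in the authors' deposited table. The other 6 lay between 1.81 and 2.68 in the authors' deposited table. The peak printed above, at the very start of the gene, had 68 input and 157 IP reads. Asb4, which encodes a substrate adaptor of a ubiquitin ligase and is known in hypothalamic neurons, had 3 plus-strand peaks between 2.57 and 2.80 in the authors' deposited table. They lay at the start, at 37.3% and within 7 bases of the end of the gene, and the last held fewer IP than input reads (1319 and 1505). All 3 Asb4 values were under the median of all peaks.

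The Dlk1 and Dio3 domain on chromosome 12 had 4 different peaks for 6 listed genes. Its paternally expressed growth and thyroid hormone genes Dlk1 and Dio3 held none. Meg3, a maternally expressed long noncoding RNA, had a peak of 237 bases (109571490 to 109571726) that stopped 3 bases before its RefSeq end. This peak held 2370 IP reads over 2946 input reads, a ratio of 0.804 (0.762 to 0.849), and its log2 fold change in the authors' deposited table was 1.08, the lowest of the 65. It also lay in the span of Rtl1, a retrotransposon-derived gene known to be read from the other strand, and was the only peak there, so no peak was found on the strand of Rtl1. The other Meg3 peak (109545822 to 109545896) held 190 IP reads over 103 input reads, a ratio of 1.84 (1.44 to 2.37).

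Rian, a host of small nucleolar RNAs, had 2 plus-strand peaks, 1 inside the other. The longer (109654895 to 109661251) had 340 input and 269 IP reads, and its log2 fold change in the authors' deposited table was 2.49. The inner peak of 300 bases had 18 input and 55 IP reads, and its value in the authors' deposited table was 4.27. Mirg, a host of microRNAs, held no peak. The spans of the listed genes hold 33 microRNA hairpins of the RefSeq table, among them 15 in the span of Rtl1 and 10 in Mirg, and 0 of the 33 were overlapped by a peak. The nearest, Mir673, lay 264 bases from the Meg3 peak, and the nearest in Mirg 74368 bases from any peak. Whether polyadenylated RNA held the hairpin transcripts was not tested. The share of all RefSeq hairpins that a peak overlaps was not counted. The 0 of 33 is thus not shown to be particular to imprinted genes.

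Airn, the paternally expressed noncoding RNA that silences Igf2r, held 6 peaks on its own strand on chromosome 17. The first began 38140 bases after its start, outside the stretch where Airn overlaps Igf2r. The peak with the most reads (12814409 to 12814758) held 4201 IP reads over 1306 input reads, a ratio of 3.22 (3.02 to 3.43), and its log2 fold change in the authors' deposited table was 3.63. A peak that stopped 96 bases before the end (12859251 to 12859788) held 1768 IP reads over 399 input reads, a ratio of 4.43 (3.97 to 4.95). The 6 lay between 2.96 and 3.96 in the authors' deposited table. A peak of 220 bases among them (12819318 to 12819537) carries another gene identifier than the other 5, lies in the pseudogene Gm16574 and sits inside a longer Airn peak, and it sets neither end of that range. The remaining peak in the Airn span, on the minus strand, had a ratio of 0.979 (0.845 to 1.13) and lay over Mas1, a receptor gene of that strand. Igf2r, the maternally expressed receptor that clears Igf2, had 1 peak near its 3' end (12683331 to 12684105) with 444 input and 360 IP reads, and its log2 fold change in the authors' deposited table was 1.22. The ratio interval of Igf2r (0.704 to 0.934) lay under that of each of the 6 Airn peaks, the lowest of which began at 1.72.

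The noncoding RNA of the Kcnq1 domain also held a peak on its own strand. Kcnq1ot1, which runs antisense to the potassium channel gene Kcnq1, had a minus-strand peak (143258008 to 143259382) with 137 input and 317 IP reads, a ratio of 2.31 (1.89 to 2.85), and its log2 fold change in the authors' deposited table was 4.11. The plus strand of the same locus carried 1 peak of 163459 bases inside the span of Kcnq1, with 671 input and 854 IP reads, a ratio of 1.27 (1.15 to 1.41), and its log2 fold change in the authors' deposited table was 2.31. The Kcnq1ot1 interval lay above the plus-strand one. The growth repressor Phlda2 and the transporter gene Slc22a18, maternally expressed neighbours, held no peak, and neither did the growth factor gene Igf2 and its noncoding neighbour H19. Among the 6 listed genes of distal chromosome 7, peaks were thus found for Kcnq1 and Kcnq1ot1 only.

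Of the 5 genes from the domain of Prader-Willi and Angelman syndromes, Magel2 alone held no peak. Ube3a, the Angelman gene, encodes a ubiquitin ligase and is imprinted in neurons. Its main peak of 400 bases (59284533 to 59284932) held 14166 IP reads over 4143 input reads, a ratio of 3.42 (3.30 to 3.54), and its log2 fold change in the authors' deposited table was 4.74, the percentile 95.1 of all peaks. It held 94.3% of the IP reads in Ube3a peaks and lay at 68.2% of the gene, not at its end. The other 2 had ratio intervals of 1.08 to 1.56 and 1.01 to 1.29, under that of the main peak. All 3 were on the plus strand, while Snhg14, the antisense RNA known to silence Ube3a in neurons, is a minus-strand gene there.

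Ndn encodes necdin, a protein of postmitotic neurons, and its peak (62349369 to 62350068) held 4415 IP reads over 1015 input reads, a ratio of 4.35 (4.06 to 4.66), and its log2 fold change in the authors' deposited table was 4.08. That peak ran past the RefSeq end of this short gene, with 80.0% of it inside. Mkrn3, a ubiquitin ligase gene linked to the timing of puberty, had 502 input and 1844 IP reads (62418718 to 62419917). The ratio of its peak was 3.67 (3.33 to 4.06), and its log2 fold change in the authors' deposited table was 2.88. This peak also lies in Gm32061, a long noncoding RNA gene of the same minus strand, so its reads cannot be told apart between both genes. The ratio intervals of Ndn and Mkrn3 met at 4.06, and the genes stood at the percentiles 82.3 and 43.9 by the table's fold change. Snrpn, which encodes a splicing protein, had 1 peak of 136973 bases with 927 input and 988 IP reads, a ratio of 1.07 (0.973 to 1.17). That interval also covers Snhg14, which shares the minus strand, so its reads cannot be told apart between both genes.

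The peak with the most IP reads among imprinted genes lay in Nap1l5, a paternally expressed gene for a nucleosome assembly protein within an intron of Herc3 on chromosome 6. This minus-strand peak (58905633 to 58907076) held 51891 IP reads over 9734 input reads, a ratio of 5.33 (5.22 to 5.45), and its log2 fold change in the authors' deposited table was 4.30. It covered most of the 1.89 kb gene, from 50 bases after its start to 400 before its end. A plus-strand peak over the same stretch, the strand of Herc3, had 437 input and 488 IP reads and a ratio of 1.12 (0.979 to 1.27). On the strand of Nap1l5 the IP reads were 106 times those of the plus strand, with intervals of the ratios that did not overlap. Nnat, a paternally expressed proteolipid gene of the developing brain inside Blcap, carried a plus-strand peak (157560403 to 157561150) of 1488 input and 4414 IP reads on chromosome 2, at a ratio of 2.97 (2.80 to 3.15), and its log2 fold change in the authors' deposited table was 3.43.

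**Figure D3:**
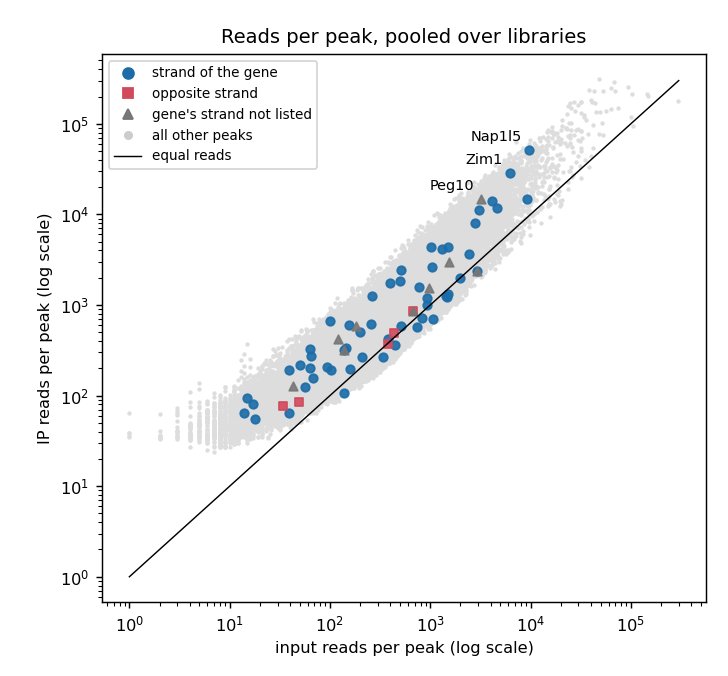
Input reads (horizontal, log scale) and IP reads (vertical, log scale) per peak for imprinted genes (coloured by strand) and all other peaks with at least 1 input read (grey), with a line at equal reads. Nap1l5 has the most IP reads of the imprinted genes (51891), and 12 of the 65 peaks lie under the line.

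Gnas, the locus of the stimulatory G protein alpha subunit with several promoters that are read from different parental copies, had 3 plus-strand peaks. The one at the 3' end (174346458 to 174346744) held 14710 IP reads over 9274 input reads, a ratio of 1.59 (1.55 to 1.63), and its log2 fold change in the authors' deposited table was 3.41. The one at 174328764 to 174329138 held 11740 IP reads over 4624 input reads, a ratio of 2.54 (2.45 to 2.63), and its log2 fold change in the authors' deposited table was 1.91. The order of these peaks was thus opposite by reads and by the table's fold change. The longest (174301888 to 174327713) had 1443 input and 1248 IP reads and ended inside a promoter window of Gnas, of which it covered 215 bases. A minus-strand peak of 250 bases lay against the 3' peak, with 86 IP reads where the plus strand had 14710.

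Plagl1, which encodes a paternally expressed zinc finger protein that restrains cell growth, had 5 plus-strand peaks in the last stretch of the gene on chromosome 10, from 89.1% to 99.0% of its span. The peak with the most reads (13127351 to 13127825) held 2417 IP reads over 514 input reads, a ratio of 4.70 (4.27 to 5.18), and its log2 fold change in the authors' deposited table was 3.39. The last (13131126 to 13131475) held 94 IP reads over 15 input reads, a ratio of 6.27 (3.61 to 11.6), and its log2 fold change in the authors' deposited table was 5.29, the highest of the 65. The ratio intervals of these peaks overlap, so the reads do not order them. Between them a peak with 383 input and 416 IP reads had 1.52 in the authors' deposited table, so the gene spanned 3.77 on that scale, the widest range of any listed gene.

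Grb10 encodes an adaptor that restrains insulin signalling and is read from the maternal copy in most tissues and the paternal copy in neurons. Its single peak (11932958 to 11933532), at the 3' end, held 698 IP reads over 1076 input reads, a ratio of 0.649 (0.589 to 0.714), the lowest of the 65, and 1.12 in the authors' deposited table. Its neighbour Ddc, an enzyme of dopamine and serotonin synthesis, held no peak. Impact, a regulator of translation on chromosome 18, had a plus-strand peak of 12218 bases with 183 input and 583 IP reads, and its log2 fold change in the authors' deposited table was 3.77. Mest and Zdbf2, listed genes that were not placed in a domain here, held no peak. Mest is a gene of the hydrolase family that marks mesoderm, and Zdbf2 is known for early postnatal growth. In all the 11 genes without a peak, Mest, Mirg, Dlk1, Dio3, Igf2, H19, Phlda2, Slc22a18, Magel2, Zdbf2 and Ddc, were not touched by any peak, even by a single base. Reads outside peaks were not analysed here, so whether these genes were expressed is unknown.

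Strands were set apart for the 59 pairs whose gene has a listed strand. Of these, 54 lay on the strand of the gene and 5 on the other, in Usp29, Kcnq1ot1, Airn, Gnas and Nap1l5. The strand of Peg10, Sgce, Rtl1, Kcnq1, Impact and H19 was not in the table used, and 9 pairs fell there. Opposite-strand pairs were not counted over all genes. Neither this split nor the values by strand below are thus shown to be particular to imprinted genes. The 5 opposite-strand peaks had between 77 and 854 IP reads, with a median of 367, beside a median of 647 and a highest value of 51891 on the strand of the gene. Their median in the authors' deposited table was 2.39, beside 3.27 for the 54. In Nap1l5, Airn and Kcnq1ot1 a known gene of the other strand, Herc3, Mas1 and Kcnq1, lay there. In Usp29 the minus-strand peak lay over the span of Zim3, 900 bases with 34 input and 77 IP reads, facing a plus-strand peak with 328 IP reads. In Gnas the plus strand had 171 times the IP reads of the opposite-strand peak, which carries another gene identifier than the plus-strand Gnas peaks. The labels name the library kit without saying whether it marks strand, and how the table's strand was assigned is not stated. The plus-strand interval of Nap1l5 contains its minus-strand interval and still has fewer reads. Whether reads were counted over whole intervals is not stated. In Airn a plus-strand peak of 220 bases held 17 input and 81 IP reads, while the longer plus-strand peak around it held 14 and 64. These Airn peaks were thus not both counted over whole intervals. The Nap1l5 reads therefore do not show how the strands shared reads. How reads were divided between strands was not tested.

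**Figure D4:**
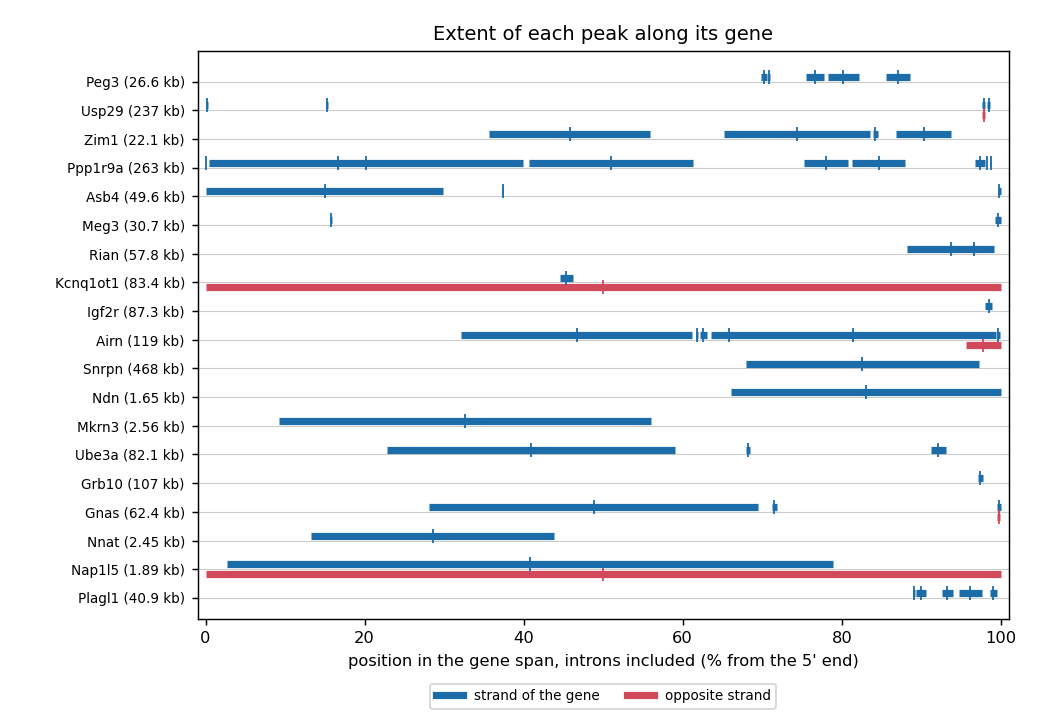
Extent of each peak along the span of its gene in percent from the 5' end, introns included (horizontal axis), for the 19 imprinted genes with a peak and a listed strand, with the strand of the gene in blue and the opposite strand in red; a tick marks the middle of the drawn part, and peaks are cut at the ends of the gene. The 5 peaks of Plagl1 lie in the last part of the gene, while those of Ppp1r9a run from end to end.

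Of 42 peaks that lay on the strand of and inside a coding imprinted gene, 14 had their midpoint in the last 10% of the span (33.3%), beside 38.7% of 14111 such peaks in all coding genes. The first 10% held 2 of the 42 (4.76%), in Usp29 and Ppp1r9a, beside 7.68%. Spans include introns, and 12 of the 65 peaks (18.5%) were longer than 10000 bases, beside 13% of all peaks, so a midpoint is a rough position there. The 14 lay in 9 of 14 genes. Own-strand peaks of noncoding genes had a median of 3.52 in the authors' deposited table (11 peaks), beside 3.18 for coding genes (43 peaks). Without the Airn peak of another identifier the noncoding median was 3.44 in the authors' deposited table (10 peaks). Airn gave 6 of the 11 peaks and 5 of the 10, so these noncoding medians rest largely on that gene. The 43 coding peaks include the Ppp1r9a peak of another identifier.

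A single textbook label of parental origin per gene divided the list into 20 paternally expressed genes, 12 maternally expressed genes and 3 labelled as differing by tissue or transcript. On the strand of the gene, where that strand is listed, a peak was found in 10 of 16 paternally expressed genes, 7 of 10 maternally expressed genes and 2 of 3 of the last kind. In the authors' deposited table the 26 peaks of the first group had a median of 3.57 and the 24 of the second a median of 2.87. No peak counted in both groups. Ppp1r9a gave 9 of the 24 peaks and Airn 6 of the 26, so single genes weigh on both medians. In the authors' deposited table the strongest peak per gene ran from 2.84 (Snrpn) to 5.29 (Plagl1) for paternally expressed genes. For maternally expressed genes it ran from 1.22 (Igf2r) to 5.19 (Ppp1r9a) in the authors' deposited table, so the ranges overlapped. The value of 5.19 belongs to the Ppp1r9a peak of another gene identifier, and Ube3a follows at 4.74 in the authors' deposited table. On either strand, also for genes without a listed strand, the counts were 14 of 20 and 8 of 12, and the first includes Rtl1 through the Meg3 peak. These pairs share 3 peaks between both groups and include peaks over Mas1, Herc3 and Zim3, and their medians were 3.41 and 2.87 in the authors' deposited table. The difference was not tested, since the peaks of a gene share their transcript and the values have no replicates. Ube3a, imprinted in neurons, was labelled maternal. Whether the labels hold in these progenitor cells was not measured, so the groups are those of the labels only.

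The order of peaks within a gene depended on the measure in Gnas and Ppp1r9a. Among 100 pairs of peaks on the same strand of a listed gene, 6 had ratio intervals that did not overlap and the opposite order in the authors' deposited table. Of these, 5 were in Ppp1r9a, which gave the most pairs of any listed gene with its 9 plus-strand peaks, and 1 in Gnas. The Ppp1r9a peak at the start of the gene took part in 4 of them, with a ratio of 2.31 (1.73 to 3.12) against a log2 fold change of 2.00 by the authors' deposited table. The excess of the table's log2 fold change over the log2 read ratio was 0.80 for this peak and 0.57 for the Gnas peak at 174328764, beside 2.74 for the Gnas peak at the 3' end. Over the 65 peaks it ran from 0.57 to 2.97. The normalization behind the table's fold change is not stated in the file headers or the labels. How many of the 100 pairs had intervals that did not overlap was not counted. The share of such reversals over all genes was not counted either, so they are not shown to be particular to imprinted genes.

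**Figure D5:**
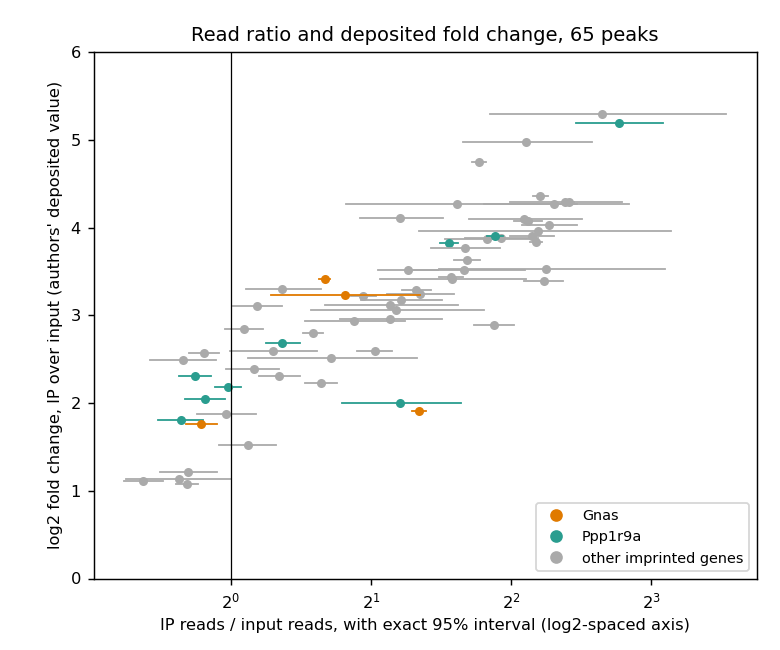
Ratio of IP to input reads with its exact 95% interval (horizontal, log2-spaced axis) against the log2 fold change in the authors' deposited table (vertical) for the 65 peaks, with Gnas and Ppp1r9a in colour and a line at a ratio of 1. The Gnas peak with a ratio of 2.54 lies lower (1.91) than the one with 1.59 (3.41).

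A wider list held genes described as imprinted in mouse or lying next to an imprinted gene. Of its 45 genes found in RefSeq, 25 had a peak (55.6%), beside the 44.2% of coding genes given above. The 45 include noncoding genes such as Zim3, and 10.9% of RefSeq long noncoding RNA genes held a peak. Several of the 25 share a peak with each other or with a gene of the main list, so they are not separate counts. The CDK inhibitor gene Cdkn1c had 1.92, the adaptor gene Gab1 3.81 (on the strand opposite to Gab1) and the survival gene Bcl2l1 3.87 at their strongest peak in the authors' deposited table. Htr2a, a serotonin receptor gene, had the highest, 6.24 in the authors' deposited table, on 16 input and 207 IP reads. In the authors' deposited table Peg12 had 4.94, Nap1l4 had 4.42, Trappc9 and Peg13 had 4.31 from a shared peak, Pon3 had 4.30, Phactr2 had 4.21, Casd1 had 4.11 and Zrsr1 had 4.08. Zrsr1 lies inside Commd1, and that plus-strand peak is on the strand of Zrsr1 and not of Commd1. Mcts2 and its host H13 also shared their strongest peak, 3.87 in the authors' deposited table. The values were 3.63 for Inpp5f, 3.48 for Atp10a, 3.15 for Ago2, 3.05 for Tssc4 (also on the opposite strand), 2.70 for Nespas, 2.55 for Osbpl5 and 1.32 for Zfat in the authors' deposited table. Blcap and Herc3 took their strongest peak from Nnat and Nap1l5 inside them. Zim3 took its own, 5.27 in the authors' deposited table, from the minus-strand peak that missed the rule for Usp29.

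Factors that set or keep imprints held peaks in 10 of 16 genes (62.5%), on either strand, beside 44.2% of all coding genes. The zinc finger genes Zfp57 and Zfp445, whose proteins guard methylation at control regions, had 3.61 and 4.39 at their strongest peak in the authors' deposited table, and Zfp568 had 2.90. The insulator factor gene Ctcf had 4.46 and the silencing genes Setdb1 and Smchd1 had 3.87 and 3.74 in the authors' deposited table. The demethylation genes Tet1, Tet2 and Tet3 had 3.42, 4.29 and 3.99, and the methyltransferase gene Dnmt3a 2.00 in the authors' deposited table. No peak was found in Dnmt1, Dnmt3b, Dnmt3l, Uhrf1, Trim28 and Dppa3.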

How the data were processed

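Files were 2 lists of the same 21195 peaks, whose intervals and strands matched in all rows. Per the submitters' processing notes, bcl2fastq 2.17.1.14, Trimmomatic 0.32 and STAR 2.5.2a were used, with builds GRCm38.p6 and GRCh38.p13. No label or header states the peak caller, the read counter or how libraries were combined. Per the file headers the deposited read counts come as 1 input and 1 IP value for each peak, always whole, and may be sums or rounded means. The deposited log2 fold change and p-values are the authors' own, with test and normalization not stated, and were taken to compare IP with input. The deposited score was the negative log2 of padj throughout and was not used. Reads in peaks came to 26633390 for input and 72308582 for IP, and the depth of each library is unknown.

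Gene spans and promoter windows came from RefSeq GRCm38.p6, all 35 genes matched by symbol, and strands were taken from the promoter windows. Read ratios carry exact 95% intervals (scipy 1.17.1, Python 3.11.15), and log2 ratios used a pseudocount of 0.5. The overlap rule and intervals were tested on simulated data. No test between groups was possible. Every listed gene is named, and of the wider lists those with a peak. The members and lists were chosen with earlier results of these data known. Alternatives were other overlap rules, strand, input reads of at least 10, peaks above the median, the pseudocount, the strongest peak per gene and peak length.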

Additional observations from a re-analysis of the deposited data

How the results depend on the processing

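The count of 24 imprinted genes with a peak stayed at 24 with any overlap, with 50% of the peak inside the gene and with at least 10 input reads. It was 22 with peaks of at most 10000 bases (without Snrpn and Impact), 19 on the listed strand of the gene, 17 when only peaks over the median fold change counted and 16 with peaks of a single RefSeq gene. In the authors' deposited table the median of 3.24 on the log2 scale became 3.27 on the strand of the gene, 3.29 with peaks of at most 10000 bases and 3.90 with the strongest peak of each gene. The median log2 read ratio of 1.21 became 1.26 with peaks of at most 10000 bases. Under the other alternatives these medians were 3.24 and 1.20 to 1.21. The length limit was chosen after seeing the data, as were parental origin on the strand of the gene, the median without an Airn peak and the alternatives for imprint control factors, of which 11 had a peak with any overlap and 8 above the median. For the wider imprinted list these counts were 26 and 20. No paired analysis was possible because the peak table has no column for a library, and for the same reason knockout was not set against control and no replicate was left out. Peaks with few input reads, such as 14 in Airn and 15 in Plagl1, have wide ratio intervals.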
